A study of Mus musculus with 6 samples.

Results

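Small leucine-rich proteoglycans (SLRPs) were followed in RNA sequencing of one immortalized line of mouse cardiosphere-derived cells. The set comprised the 10 genes of the deposited table named Lum, Dcn, Bgn, Fmod, Ogn, Kera, Omd, Prelp, Aspn and Podn, out of 54532 genes in the table. They were listed by family membership with earlier results of the same comparison known, so their values are given as a description. Of the 10 members, 7 had enough reads to enter the fit across 14246 genes, and Omd, Aspn and Kera did not.

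The line came from ventricular epicardium of C57BL/6 mice and carried human telomerase from a lentivirus, per the methods of the study. All 6 libraries were from passage 30. Control cells (3 libraries, control 1 to 3) are described by line and passage alone, and induced cells (3 libraries, induced 1 to 3) as 5-aza induced, although 1 treatment text stands on all 6 samples. By that text, taken here as that of the induced cells, they received 10 µM 5-aza (5-azacytidine, an inhibitor of DNA methylation) for 3 days, followed per the labels by 4 weeks in IMDM with 2% FBS. The methods of the study give another medium and duration for that culture, and the sources do not state how long or in which medium the sequenced control cells were kept. Drug, low serum and time in culture therefore cannot be told apart. The labels speak of separate samples without naming separate cultures, so the p-values given here measure the spread between these samples, which may be technical.

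SLRPs are secreted proteins of the extracellular matrix built on leucine-rich repeats, most of which carry chains of chondroitin, dermatan or keratan sulphate. They bind collagen fibrils and set their diameter and spacing, and several of them also bind TGF-beta and other growth factors or signal through Toll-like receptors. In the heart they are made mainly by fibroblasts and valve cells and are known for their rise in scar tissue. The family is grouped by sequence into class I (Dcn, Bgn, Aspn), class II (Lum, Fmod, Kera, Omd, Prelp), class III (Ogn, with Epyc and Optc outside the set) and further classes that hold Podn.

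Several members lie side by side, and 4 promoters are shown because 5-aza acts on methylation of CG dinucleotides and 3 of these genes are neighbours on chromosome 13. Each is the 250 bases before the transcription start in RefSeq (build GRCm38.p6, + strand), at chr13:49607765-49608014 for Ogn, chr13:49582212-49582461 for Omd, chr13:49544193-49544442 for Aspn and chrX:73483351-73483600 for Bgn. Capitals mark CG and the letters TATAAA, searched on both strands, so that the reverse match reads TTTATA.
Ogn: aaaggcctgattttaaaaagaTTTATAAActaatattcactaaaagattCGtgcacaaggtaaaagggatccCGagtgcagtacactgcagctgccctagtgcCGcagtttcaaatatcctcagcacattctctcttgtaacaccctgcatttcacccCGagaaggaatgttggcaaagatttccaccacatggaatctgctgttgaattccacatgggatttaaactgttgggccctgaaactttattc
Omd: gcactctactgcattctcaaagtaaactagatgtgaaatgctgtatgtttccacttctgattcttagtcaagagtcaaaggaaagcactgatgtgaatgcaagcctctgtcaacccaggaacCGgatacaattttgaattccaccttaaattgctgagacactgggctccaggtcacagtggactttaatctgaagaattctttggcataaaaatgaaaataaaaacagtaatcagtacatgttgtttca
Aspn: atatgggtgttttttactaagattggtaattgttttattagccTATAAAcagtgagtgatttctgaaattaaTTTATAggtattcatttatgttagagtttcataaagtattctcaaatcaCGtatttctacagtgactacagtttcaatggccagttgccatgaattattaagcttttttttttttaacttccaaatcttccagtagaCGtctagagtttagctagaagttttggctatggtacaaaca
Bgn: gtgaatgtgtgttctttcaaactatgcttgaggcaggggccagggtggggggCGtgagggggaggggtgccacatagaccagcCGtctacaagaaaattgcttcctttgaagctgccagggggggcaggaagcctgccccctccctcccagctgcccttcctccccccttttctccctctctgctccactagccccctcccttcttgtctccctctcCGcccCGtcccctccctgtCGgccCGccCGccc
The windows held 4 CG in Ogn, 1 in Omd, 2 in Aspn and 7 in Bgn, beside a median of 6 over 32851 promoter windows of the same length. TATAAA was found on both strands in Ogn, where the matches overlap, and in Aspn, and on either strand in 12.4% of all windows. On the printed strand the match began 227 bases before the transcription start in Ogn and 207 bases before it in Aspn. Of the other members in the promoter table, Kera had 1 CG, Fmod 2, Prelp 5, and Podn 32 and 7 in its pair of windows. Lum and Dcn had no entry there, so their CG counts are not known here. Methylation itself was not measured in these libraries.

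Most of the family's RNA came from Bgn and Dcn in both groups, and all 7 tested members were higher in induced cells. Lum differed most, by 20.7-fold, and Bgn least, by 1.19-fold. For each of the 7, the groups did not overlap. Over all 14246 tested genes, 64.8% were past an adjusted p of 0.05 in edgeR's quasi-likelihood test and 32.6% were past it and higher in induced cells. Every induced library lay above every control library for 34.1% of tested genes, and the groups did not overlap in either direction for 68.6%. A rise of at least 2-fold was called for 6 of the 7 members and for 9.29% of tested genes, and one of at least 4-fold for 5 members and for 4.11% of tested genes. Since the members were listed with this comparison known, nothing is read from these counts. The median log2 fold change of the 7 members was 2.19 and that of all tested genes was -0.01. More producing cells and more RNA per cell cannot be told apart in such bulk libraries.

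**Figure D1:**
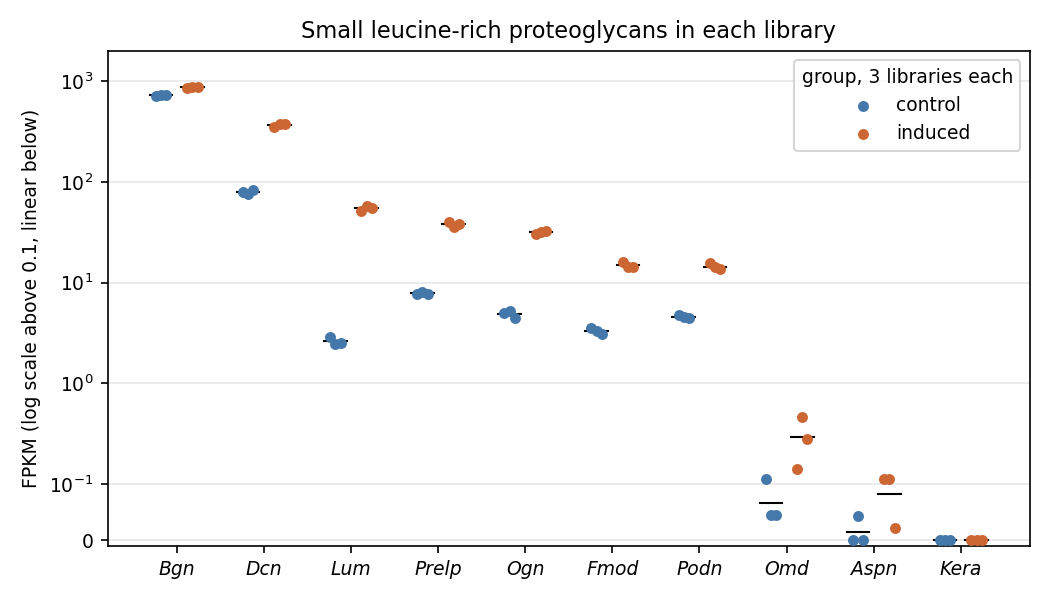
FPKM (y axis, log scale above 0.1 and linear below) of the 10 SLRP members (x axis) in 3 control and 3 induced libraries, with a line at each group mean. Bgn and Dcn stand above the rest in both groups, Lum moves from the seventh to the third position, and Kera is at 0 in all 6 libraries.

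Among the class I genes, Bgn (biglycan, chrX:73483602-73495933, ENSMUSG00000031375) encodes a core protein with chondroitin or dermatan sulphate chains that binds collagen and Toll-like receptors. Its FPKM, the deposited reads per kilobase of exon scaled to library depth, was 714.7, 720.2 and 734.4 in control libraries 1 to 3 and 862.0, 865.7 and 879.5 in induced libraries 1 to 3. It was thus at a high level in every library, and the difference was small (log2 fold change 0.25, SE 0.04) but wider than the spread within either group. Ordered by FPKM over the whole table, Bgn stood at position 49 in control and 33 in induced cells.

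Dcn (decorin, chr10:97479609-97518143, ENSMUSG00000019929) encodes the closest relative of biglycan, a dermatan sulphate proteoglycan that binds fibrillar collagen and TGF-beta. Its FPKM was 79.5, 75.8 and 83.3 in control libraries and 347.3, 371.8 and 377.7 in induced libraries. Every induced library lay far above every control library, and the log2 fold change was 2.19 (SE 0.05), or 4.56-fold. Aspn (asporin), the remaining class I gene and a binder of collagen and TGF-beta, had 0, 2 and 0 reads in control and 5, 5 and 1 in induced libraries. The pooled ratio was 5.73 with a 95% exact interval of 1.25 to 53.2 for counting error, and the libraries overlapped in range, with induced library 3 at 1 read. With no filter on low counts its adjusted p was 0.133 in edgeR.

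Among the class II genes, Lum (lumican, chr10:97565128-97572703, ENSMUSG00000036446) encodes a keratan sulphate proteoglycan that holds collagen fibrils at regular spacing. Its FPKM was 2.87, 2.45 and 2.54 in control libraries and 51.3, 58.2 and 54.7 in induced libraries, with a log2 fold change of 4.37 (SE 0.08). The lowest induced library lay far above the highest control library, and Lum ranked 161 by log2 fold change among all tested genes. Fmod (fibromodulin), which binds collagen at the same site as lumican, had an FPKM of 3.55, 3.29 and 3.10 in control and 16.2, 14.2 and 14.3 in induced libraries (log2 fold change 2.16, SE 0.08). Prelp, an arginine- and proline-rich member thought to anchor basement membranes to the underlying connective tissue, had an FPKM of 7.75, 7.98 and 7.72 in control and 39.7, 36.0 and 38.4 in induced libraries (log2 fold change 2.27, SE 0.06). Fmod and Prelp were thus higher by similar factors. An antisense gene, Gm15851, covers 9.68% of the Prelp exon bases and had 2 reads in control and 1 in induced libraries, and the strand setting of the counting is not stated.

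The other class II genes were at or near the limit of detection. Omd (osteomodulin, a keratan sulphate proteoglycan of mineralised tissue) had 5, 2 and 2 reads in control and 6, 20 and 12 in induced libraries. Its pooled ratio was 4.40 (95% exact interval 2.09 to 10.4, counting error only), and the induced libraries were above the control libraries, but induced library 1 exceeded control library 1 by 1 read. In fits that included it, Omd had an adjusted p of 0.00242 in edgeR with no filter and of 0.0248 in DESeq2. Kera (keratocan), known from the cornea, had 0 reads in all 6 libraries, where a count of 0 allows up to 0.150 to 0.159 CPM (3 reads per library).

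The class III gene Ogn (osteoglycin, also called mimecan, chr13:49608046-49624501, ENSMUSG00000021390) regulates collagen fibrils and is found in bone, cornea and heart. Its FPKM was 5.01, 5.28 and 4.48 in control libraries and 30.7, 31.5 and 32.4 in induced libraries. The groups were far apart and each was tight (log2 fold change 2.67, SE 0.07, or 6.36-fold). Podn (podocan), a collagen-binding member first described in the kidney, had an FPKM of 4.71, 4.55 and 4.47 in control and 15.5, 14.2 and 13.5 in induced libraries, with a log2 fold change of 1.64 (SE 0.07). It was the smallest difference among the tested members after Bgn.

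**Figure D2:**
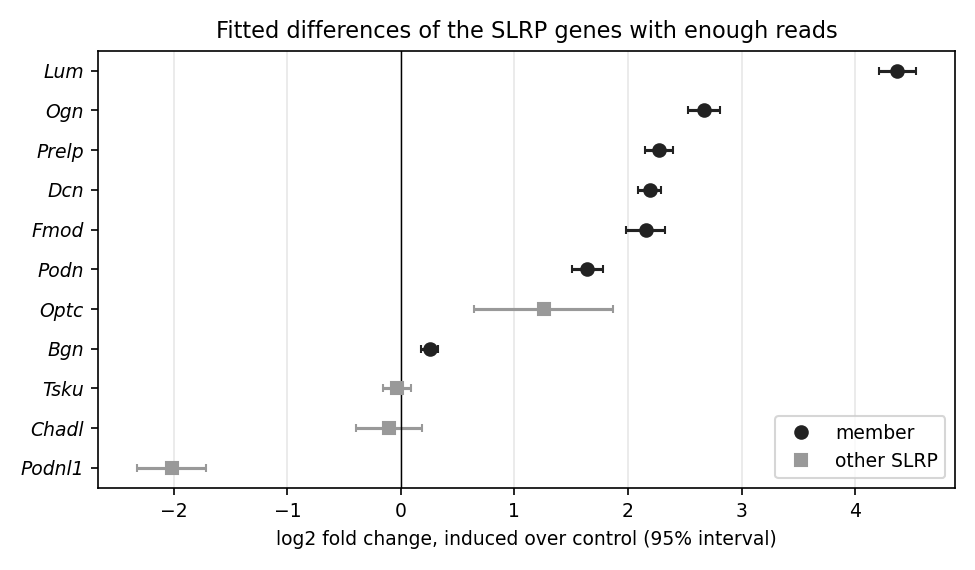
Fitted log2 fold change (x axis, induced over control, with 95% intervals) of the 11 SLRP genes (y axis) that had enough reads, members as black circles and other SLRPs as grey squares. The 7 members lie between 0.25 and 4.37, and Podnl1 lies at -2.02.

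The members' order by FPKM in control cells was Bgn (723.1 ± 10.2, SD, n = 3), Dcn (79.5 ± 3.79), Prelp (7.82 ± 0.146), Ogn (4.92 ± 0.409), Podn (4.58 ± 0.124), Fmod (3.31 ± 0.229), Lum (2.62 ± 0.223), Omd, Aspn and Kera. Ogn and Podn overlapped in the control libraries. In induced cells the order by FPKM was Bgn (869.1 ± 9.24), Dcn (365.6 ± 16.1), Lum (54.7 ± 3.44), Prelp (38.1 ± 1.89), Ogn (31.5 ± 0.886), Fmod (14.9 ± 1.08), Podn (14.4 ± 0.997), Omd, Aspn and Kera. Fmod and Podn overlapped in the induced libraries. Per kilobase of coding transcript, a scale chosen after the data were seen, both of these orders turned without overlap, with Podn (6.23 ± 0.172) above Ogn (4.97 ± 0.423) in control cells and Podn (19.4 ± 1.34) above Fmod (15.8 ± 1.14) in induced cells.

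Added over the 10 members, the FPKM was 826 ± 12.3 in control and 1389 ± 24.2 in induced libraries. Bgn made up 87.6% ± 0.282 of that sum in control and 62.6% ± 0.579 in induced cells, while the other tested members differed by larger factors. The share of Dcn was 9.63% ± 0.347 in control and 26.3% ± 0.728 in induced cells, and that of Lum was 0.317% ± 0.0292 and 3.94% ± 0.215. The deposited exon lengths of Bgn and Dcn, 6099 and 5838 bases, are longer than their coding transcripts of 2419 and 1758 bases. Per kilobase of coding transcript, the share of Bgn was 86.3% in control and 61.5% in induced cells and that of Dcn was 12.5% and 34.0%, while that of Lum was lower than by FPKM, at 0.124% and 1.53%. As a share of all reads, the members other than Bgn took 0.0535% to 0.0570% in control and 0.245% to 0.264% in induced libraries.

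**Figure D3:**
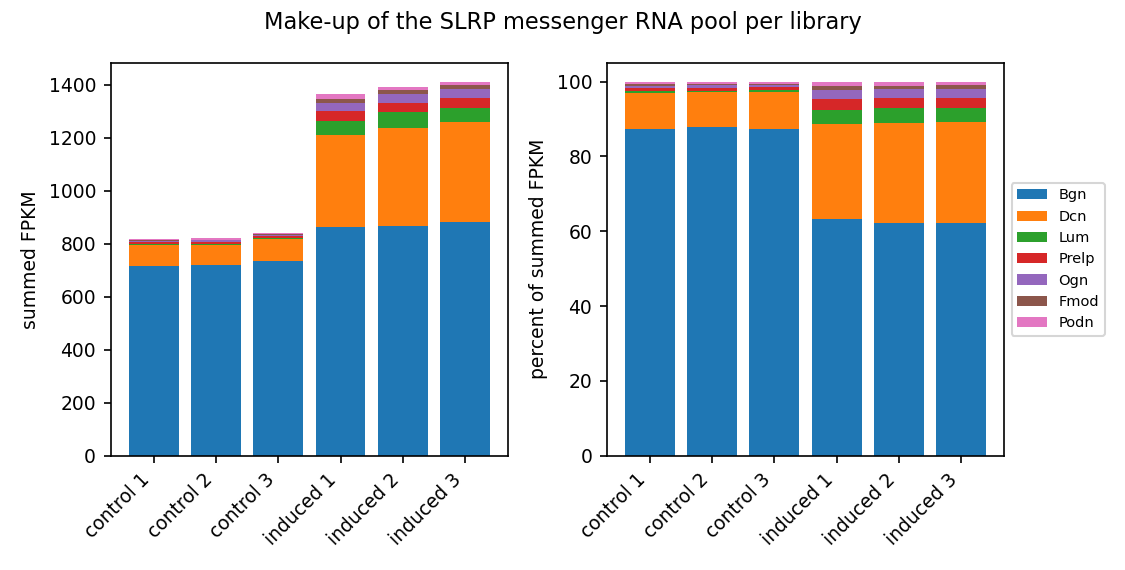
Summed FPKM of the SLRP members (left, y axis in FPKM) and the percent of that sum held by each (right) in the 6 libraries (x axis). The mean sum is 826 in control and 1389 in induced cells and the Bgn share is 62.6% in induced cells; Omd, Aspn and Kera are too low to be seen and are not drawn.

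The coding sequences of the members vary in likeness, and their transcripts share no long exact stretches. The closest pair was Dcn and Bgn, with 61.7% identity over the alignment of their coding bases, followed among members by Bgn and Aspn with 57.1%. The lowest value among members was that of Ogn and Podn, with 32.1%. Gaps count against identity here, and the coding sequences of this pair differ in length, at 894 and 1833 bases. The longest exact stretch shared by the transcripts of any pair of members was 50 bases (Bgn and Podn), untranslated parts included. The reads were 100 bases long per the methods of the study.

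In the genome, the members lie in 3 clusters and 2 single loci. On chromosome 10, Dcn, Lum, Kera and Epyc (a cartilage SLRP outside the set) follow each other with gaps of 47.0, 34.2 and 30.4 kb. Levels in CPM, counts scaled to library size with TMM factors, were 469 ± 21.4 and 2138 ± 95.6 for Dcn in control and induced cells and 6.47 ± 0.547 and 134 ± 8.64 for Lum. Beside them Epyc had 9 reads in control and 12 in induced libraries, so this cluster held both the widest difference among the members and the member with no reads.

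On chromosome 13, Ecm2, Aspn, Omd and Ogn lie with gaps of 11.7, 14.9 and 15.2 kb inside the gene body of Cenpp, a centromere protein gene on the opposite strand. Cenpp fell (log2 fold change -1.52, SE 0.28, adjusted p = 0.00013 in edgeR), from 2.89 ± 0.936 to 1.00 ± 0.134 CPM, while Ogn had 12.8 ± 1.09 CPM among control and 81.0 ± 2.29 among induced libraries. Of the flanking genes, Iars (a cytosolic isoleucyl-tRNA synthetase) fell by 0.38 on the log2 scale and Nol8 (a nucleolar protein) had a log2 fold change of 0.07 with an adjusted p of 0.543. None of the 4 flanking or overlapping genes tested around this cluster was called higher, and 2 were called lower.

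On chromosome 1, Optc, Prelp and Fmod lie with gaps of 2.3 and 115.8 kb. The neighbours tested there, Optc and the antiproliferative gene Btg2 (log2 fold change 0.82, SE 0.06, adjusted p = 3.78e-10 in edgeR), were both higher in induced cells. Tes3-ps, beside the cluster on chromosome 13, was tested and not called (log2 fold change -0.35, SE 0.54, adjusted p = 0.586 in edgeR). The other neighbours of the clusters had too few reads to be tested. Around Podn on chromosome 4, Echdc2 fell by 0.32 on the log2 scale and Scp2 had a value of -0.11. Around Bgn on the X chromosome, Dusp9, a phosphatase acting on MAP kinases, fell by 2.02 and Haus7, a spindle augmin subunit, had a value of -0.21 (adjusted p = 0.11 in edgeR).

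**Figure D4:**
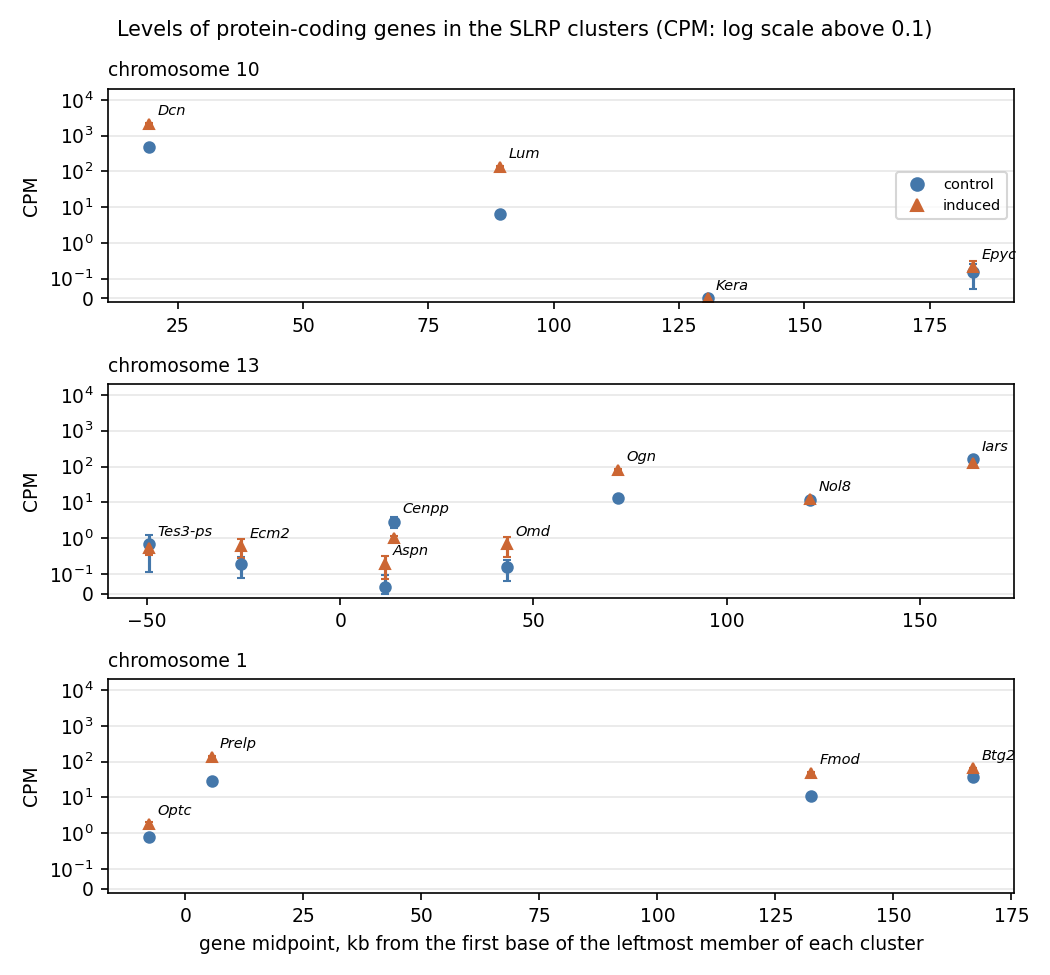
CPM (y axis, log scale above 0.1) of the protein-coding genes in and beside the SLRP clusters of chromosomes 10, 13 and 1 against gene midpoint (x axis, kb), as mean with SD of 3 control (circles) and 3 induced (triangles) libraries. Ogn, Lum and Dcn are separated between groups beside Nol8, whose groups are close.

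Of 8 other SLRP genes, 4 were tested. Optc (opticin, an eye SLRP) rose by 1.26 on the log2 scale (SE 0.29, adjusted p = 0.000954 in edgeR) at a low level of 0.776 and 1.86 CPM. Podnl1, the close relative of Podn, fell, with an FPKM of 3.92, 4.80 and 3.57 in control and 1.00, 0.901 and 1.15 in induced libraries (log2 fold change -2.02, SE 0.14). Tsku (tsukushi, an inhibitor of BMP and Wnt signalling) did not pass the test, with a log2 fold change of -0.04 and a 95% interval of -0.16 to 0.09. Chadl was likewise not called (-0.10, interval -0.40 to 0.19). The remaining genes had 9 and 12 reads in control and induced libraries for Epyc, 11 and 34 for Ecm2, 22 and 11 for Chad, and 41 and 22 for Nyx.

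The enzymes that build the chains on these core proteins split in direction. Of 21 tested genes for chondroitin and dermatan sulphate, 10 rose and 5 fell (71.4% called), and the median log2 fold change was 0.19. Over all 14246 tested genes, 64.8% were called, 32.6% higher and 32.2% lower. Nothing is read from the counts of this and the later lists. Chpf, a chain-polymerising factor, and Fam20b, a kinase that primes the linker, each had a log2 rise of 0.69, whereas Chst15, a sulphotransferase, fell from 17.3 ± 0.731 to 5.48 ± 0.382 CPM and Pxylp1, the phosphatase that acts on the same linker, fell by 0.75 on the log2 scale. Dse, a dermatan epimerase, did not pass the test (log2 fold change 0.05, SE 0.06). In the same list, Dsel and Chst14 were called higher, with log2 rises of 0.20 and 0.19. Chst13 had 0 reads in control and 16 in induced libraries and was not tested.

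All 6 tested genes of keratan sulphate synthesis were called, 4 higher and 2 lower, with a median of 0.50. On the log2 scale, the chain-extending B4galt4 rose by 1.40 and the core fucosyltransferase Fut8 by 0.91. The sulphotransferases Chst1, which sulphates galactose, and Chst2, which sulphates N-acetylglucosamine, fell by 2.89 and 1.79. Chst1 went from 37.2 ± 0.875 to 5.01 ± 0.194 CPM, with no overlap between groups, while RNA for the core proteins Lum and Fmod was higher in the same libraries.

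Among collagens bound by SLRPs, 6 of 10 tested genes rose and 3 fell (median 0.49). Col14a1, a fibril-associated collagen that binds decorin, rose most, from 8.23 ± 0.530 to 87.9 ± 2.86 CPM. Log2 rises of 0.94, 0.70 and 0.65 were found for Col12a1, Col3a1 and Col5a2, and Col1a1, Col5a1 and Col6a2 fell. The chains of collagen I split, with log2 fold changes of -0.36 for Col1a1 and 0.33 for Col1a2. Col6a3 rose by 1.60 (SE 0.29), with 88, 207 and 86 reads in induced libraries 1 to 3. Col2a1 had 0 reads in control and 4 in induced libraries.

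All 12 tested proteases and enhancers that act on SLRPs or procollagen were called, 7 higher and 5 lower. Htra1, a protease that cleaves several SLRPs, rose by 1.14 on the log2 scale, and the aggrecanase Adamts4 fell by 1.31. The other higher genes were Mmp2, Mmp3, Mmp13, Mmp14, Adamts1 and Adamts5. Of these, Mmp3 had the highest level, from 1337 ± 35.1 to 2208 ± 122 CPM. The enhancers of procollagen processing Pcolce2 and Pcolce fell by 2.98 and 0.76, and Bmp1 and Tll1, the proteinases that trim the propeptides of collagens and of biglycan, were also lower. Tll2 had 9 reads in control and 0 in induced libraries.

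Among receptors and ligands bound by SLRPs, 9 of 15 tested genes rose and 2 fell (median 0.28). The log2 rise was 1.67 for Tgfb2 and 1.17 for Tgfb3, which encode TGF-beta ligands, and 1.60 for Ccn2, listed in the table as Ctgf and a matricellular partner of decorin. Cd44, a hyaluronan receptor, fell from 94.0 ± 2.55 to 32.9 ± 3.31 CPM, and Tlr2 did not pass the test (log2 fold change -0.08). Tlr4 had a log2 fold change of 0.18 (adjusted p = 0.028 in edgeR), but its groups overlapped and 8 of the alternatives lost the call, DESeq2 among them (adjusted p = 0.0663). The number of higher genes in this list ran from 7 to 10 over the alternatives.

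Among proteoglycans of other families, 8 of 14 tested genes rose and 4 fell (median 0.45). The log2 rise was 2.02 for the glypican Gpc3 and 1.21 for the basement membrane proteoglycan Agrn, and the large matrix proteoglycan Vcan and the syndecan Sdc3 fell by 1.71 and 0.85. Spock1 had 0 reads in control and 46 in induced libraries.

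**Figure D5:**
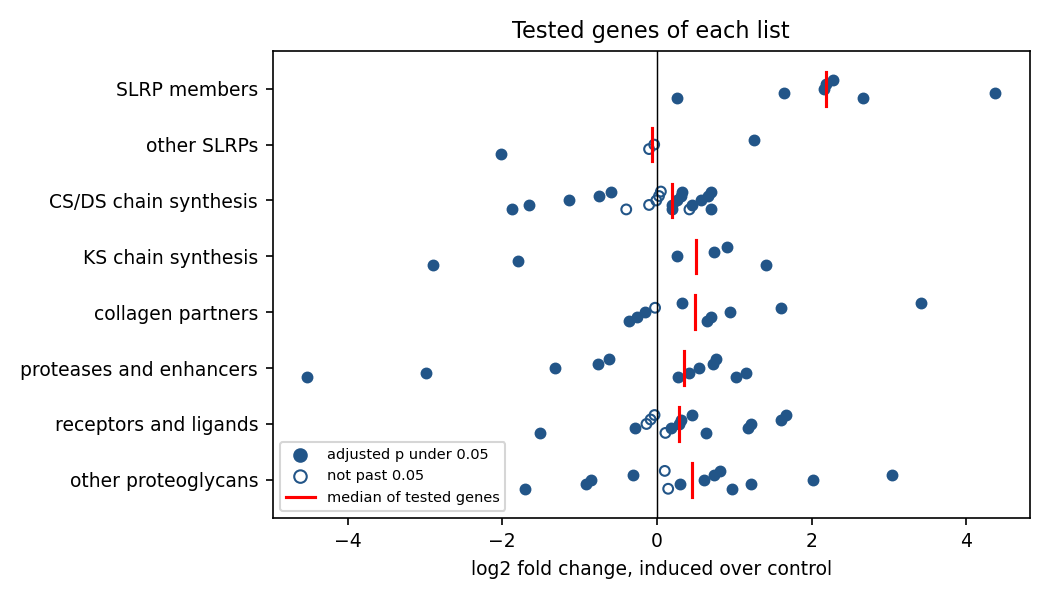
Log2 fold change (x axis) of every tested gene in the SLRP set and the related gene lists (y axis), filled where the adjusted p was under 0.05, with a red line at each median. SLRP members have a median of 2.19, whereas genes of keratan sulphate synthesis run from -2.89 to 1.40.

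Markers of the cells and of others that make SLRPs moved as follows, and their part in the members' differences was not tested. Of 8 mesenchymal and epicardial genes, all were tested, 5 rose and 3 fell, and their summed level was 1349 to 1392 CPM for control and 1974 to 2116 CPM for induced libraries. The sum was higher mainly through Upk3b, at 254.0 ± 0.674 CPM in control and 942.1 ± 62.9 CPM in induced libraries. Pdgfra went from 243.3 ± 9.74 to 146.8 ± 8.02 CPM and Pdgfrb from 299.9 ± 7.21 to 249.4 ± 5.94 CPM. Eng and Thy1, surface markers by which cardiosphere-derived cells are known, were at 360.3 ± 0.329 and 112.8 ± 2.04 CPM in control cells. Thy1 rose by 0.54 on the log2 scale, and Eng had a log2 fold change of 0.12 whose call (adjusted p = 0.019 in edgeR) was lost in 6 of the alternatives. The leading ones by p were Upk3b, Tcf21 and Wt1, with log2 rises of 1.89, 1.49 and 1.34, and Pdgfra, which fell by 0.73. Tbx18 and Pdgfrb fell by 0.33 and 0.27 on the log2 scale, with every induced library below every control library. Of 7 cardiomyocyte genes, 2 had enough reads. Tnnt2 rose by 2.15 on the log2 scale, Tnni3 was not called, and the sums were 12.99 to 16.1 CPM in control and 59.1 to 62.7 CPM in induced libraries. Myh6, Actn2 and Nppa had 0 reads in control and 1, 8 and 4 in induced libraries, the 8 of Actn2 all in induced library 2. Ryr2 had 0, 0 and 1 reads in control and 9, 10 and 10 in induced libraries. Myh7 had 3 reads in control and 4 in induced libraries.

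Among markers of tissues rich in SLRPs, some rose, some fell and others were not called or had few reads. Of 5 tendon genes, 4 were tested, Scx (a transcription factor of tendon) rose by 1.27, Egr1 fell by 0.39 and Tnmd was at 0 in all libraries. Mkx and Thbs4 were not called, with log2 fold changes of 0.145 and 0.043. In cartilage and bone, only Sox9 and Runx2 were tested, and they fell by 2.24 and 1.07 on the log2 scale, with Matn1 and Ibsp at 0. Bglap had 3 reads, in induced libraries only. Reads in control and induced libraries were 5 and 13 for Comp, 1 and 1 for Acan, 5 and 24 for Dmp1, and 33 and 4 for Sp7. Of 6 leukocyte genes, Cd68, a lysosomal protein of macrophages, rose from 1.96 ± 0.217 to 29.2 ± 2.77 CPM, while Ptprc, Itgam, Tyrobp, Cd52 and Cd3e had 0 reads in all 6 libraries. None of 5 endothelial genes was tested, with summed levels of 0.153 to 0.405 CPM in control and 0.0526 to 0.319 CPM in induced libraries, Tie1 at 0 and Emcn at 1 read in control only.

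The genes whose pattern over the 6 libraries was most like that of Lum, by Euclidean distance of centred log2 CPM, were Fgl2 (distance 0.452), Ppfibp2 (0.473) and Cyp27a1 (0.491). Those most like Dcn were Selp (0.132), Hist1h1c (0.138) and Fhl1 (0.143). With 2 groups of libraries, this distance is set mainly by the size of the difference between the groups. It says nothing of shared control.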

How the data were processed

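RNA sequencing data of 3 control and 3 induced libraries were analysed from one deposited table. It holds raw read counts per gene, whole numbers that the authors did not normalize, and FPKM, which the authors computed from the counts, a gene length and one depth per library. The submitters' processing notes name HISAT2 2.0.5, featureCounts 1.5.0-p3, DESeq2 1.16.1 and mm10, without the strand setting. The authors' own fold changes and p-values in the table, and their Gene Ontology tables, were not used.

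Counts were tested in R 4.3.3 with edgeR 4.0.16 (filterByExpr, minimum count 10 and minimum total 15, TMM scaling, two-sided quasi-likelihood test, Benjamini-Hochberg adjustment over all 14246 tested genes, threshold 0.05). Totals were 19041133 to 19823369 counts per library, and every pair of libraries within a group differed by more than sampling noise. Exact intervals of pooled read ratios and zero limits reflect counting error alone, because the reads carry no molecular identifiers and may be copies of one molecule, whereas the intervals of log2 fold changes come from the edgeR fit and include the spread between libraries. Of the 54532 genes, 54495 were in GENCODE M21, 98.1% of them at the same coordinates. RefSeq promoters (GRCm38.p6) matched 8 of 10 members by symbol. Ccn2 and Ccn4 were matched to Ctgf and Wisp1 by synonym.

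Members and lists were chosen with earlier results of these data known. Named genes were all members, up to 4 called genes with the smallest p per list, untested genes with reads in at most 1 group, 2 neighbours on each side of each locus, and the 3 genes nearest in pattern to Lum and to Dcn. Other genes named in the report (the uncalled or untested SLRPs outside the set, Eng, Thy1, Tnni3, Dse, Bmp1, Tll1, Tlr2, Tlr4, Col1a1, Col5a1 and Col6a2) were chosen after their values were seen. So were Pdgfrb, Tbx18, Mmp2, Mmp3, Mmp13, Mmp14, Adamts1, Adamts5, Ryr2 and Myh7. The same holds for Col1a2, Col6a3, Dsel, Chst14, Mkx, Thbs4, Comp, Acan, Dmp1 and Sp7. Alternatives were DESeq2 1.42.0, other scalings and filters, a threshold of 0.01, a replicate block, limma 3.58.1 on log2 FPKM with a pseudocount of 1 or 0.1, and leaving out each library.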

Additional observations from a re-analysis of the deposited data

How the results depend on the processing

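All 7 tested members kept their direction and their call under every alternative (105 values). The log2 fold change of Lum ran from 3.95, with limma on FPKM, to 4.45, and that of Bgn from 0.22 to 0.27. Of 1064 values of 71 tested genes named or lying beside the members, 1044 kept direction and call. Pdgfrb, Tbx18, Col1a2, Col6a3, Dsel, Chst14, Mkx, Thbs4 and the higher proteases other than Htra1 were not among these genes. The calls of Tlr4 and Eng were lost in 14 values, Scp2, Haus7 and Tnni3 gained a call in 4, and the uncalled Dse and Tes3-ps changed sign when 1 library was left out (lowest to highest -0.00816 to 0.111 and -0.82 to 0.48). The cause was not tested. Over the alternatives, 7 to 10 receptors and ligands and 8 to 12 other proteoglycans were called higher. Scaling by library totals put the median over tested genes at -0.04, and 46.5% of calls were then higher (50.3% with TMM). With a replicate block, 7 members and 9063 genes in all were called. Correlations of deviations between same-numbered libraries were -0.0091 to 0.0269, and those between differently numbered libraries were -0.0533 to 0.0412. With 3 libraries per group, these values cannot settle whether the replicate numbers mark pairs. DESeq2 tested 9 members and called 8, Omd added and Aspn not called (adjusted p = 0.217), beside 33.0% of its 25705 genes. With edgeR, 8 members were called with no filter, beside 38.0% of tested genes. Without control 1, control 2, control 3 or induced 1, 8 were also called, beside 59.1%, 58.7%, 59.1% and 61.3% of tested genes. The low read counts of Omd and Aspn limit what can be said of them.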
